A study of Homo sapiens with 4 samples.

Results

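The epidermal differentiation complex is a run of genes on chromosome 1q21 whose products build the outer layers of skin. Of its protein-coding genes other than the S100 genes, 41 chosen by name were followed here in RNA-seq of HaCaT cells. These are keratinocytes of human skin that grow without limit. The members were the protein-coding genes that lie in a window of 1800001 bases of this region (the members run from 152056620 to 153321317 in hg19) and are named IVL, LOR, FLG, FLG2, TCHH, TCHHL1, HRNR, RPTN, CRNN, KPRP, SMCP, PGLYRP3 or PGLYRP4, or belong to the SPRR (10 genes) or LCE (18 genes) families. They were 41 of 19233 protein-coding genes and of 44591 genes in all, and the window also held 17 S100 genes and 9 other protein-coding genes. The cells were untreated, grown with 12% serum according to the labels (the study's methods give another percentage), and gave 4 replicates of a single condition with no comparison group. HaCaT is 1 cell line, and the labels give no culture density or calcium level. They also do not say whether the 4 replicates, which the study calls biological repeats, came from separate cultures, so the p-values below measure the spread between these samples only.

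Keratinocytes leave the basal layer, stop dividing and end as dead, flattened corneocytes. On the way the plasma membrane is replaced by the cornified envelope, a shell of proteins that transglutaminases cross-link to each other. Involucrin (IVL) is laid down early, loricrin (LOR) and the late cornified envelope (LCE) proteins follow, and small proline-rich (SPRR) proteins bridge the other components. The fused-type S100 proteins, to which filaggrin (FLG) and trichohyalin (TCHH) belong, bundle keratin filaments or are built into the envelope. PGLYRP3 and PGLYRP4 encode secreted peptidoglycan recognition proteins that act on bacteria.

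Replicate 1 stood apart from the other libraries before any member was considered. It held 73082279 counted reads, of which 76.1% fell on protein-coding genes, against 17056035 to 19745170 reads and 95.3 to 96.4% in replicates 2 to 4. Levels are therefore given as TPM over protein-coding genes only (the count per gene length, scaled to 1000000 within each library), and the median detected gene then was 0.02 higher on the log2 scale in replicate 1 than in the others' mean. A library's 3 counts were taken as its limit of detection, which was 0.0539 CPM (counts per 1000000 protein-coding counts) in replicate 1 and 0.159 to 0.185 in the others. All 13 keratinocyte markers were detected in every replicate, with a summed TPM of 12083 to 30242, but several differed in replicate 1. The basal keratin KRT14 had 6824, 7642, 6547 and 6375 TPM in replicates 1 to 4, KRT15 had 13064, 458, 239 and 1308, and KRT5 had 5396, 2660, 1920 and 3000. The lowest of the list were TP63, EGFR and DSG3, with means of 71.2, 180 and 215 TPM. KRT15, DSG3 and the integrin ITGA6 were 20.2, 6.5 and 4.58 times the pooled other replicates in replicate 1, and ITGB4 was at 0.296 times. Markers of other cells were low. Their summed TPM was 5.20 to 9.70 for fibroblasts (1 of 7 genes detected) and 3.73 to 9.16 for melanocytes (2 of 6, TYR at 0). It was 8.42 to 43.9 for immune cells (1 of 5, CD68, with PTPRC at 0 in replicates 2 to 4) and 0.859 to 2.36 for endothelium (0 of 3, PECAM1 at 0). Some of these markers also set replicate 1 apart. VWF had 507, 7, 0 and 6 counts, DCN 186, 0, 26 and 0, and LUM 172, 0, 23 and 6. Others went the other way, such as COL1A1 (72, 194, 100 and 377 counts) and CDH5 (0, 21, 32 and 46).

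Most of the 41 members were silent or near the limit of detection in these cells. With more than 3 counts in every replicate as the rule, 6 of 41 members were detected (14.6%), against 65.7% of all protein-coding genes. The 6 were IVL, SPRR1A, SPRR1B, FLG, TCHH and PGLYRP4. A further 17 members passed 3 counts in at least 1 replicate, so that 23 did so in all (56.1%, against 78.1% of protein-coding genes). No count at all was found for 15 members (36.6%, against 14.2%), although replicate 1 allowed levels down to 3 counts among 55607710 protein-coding counts. The S100 genes of the same window gave 14 of 17 detected. In RNA from whole cultures, fewer cells that express a gene and less RNA per cell cannot be told apart. All members together took 15460, 1738, 658 and 1251 counts in replicates 1 to 4, which is 0.0278, 0.0107, 0.00348 and 0.00680% of the protein-coding counts.

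**Figure D1:**
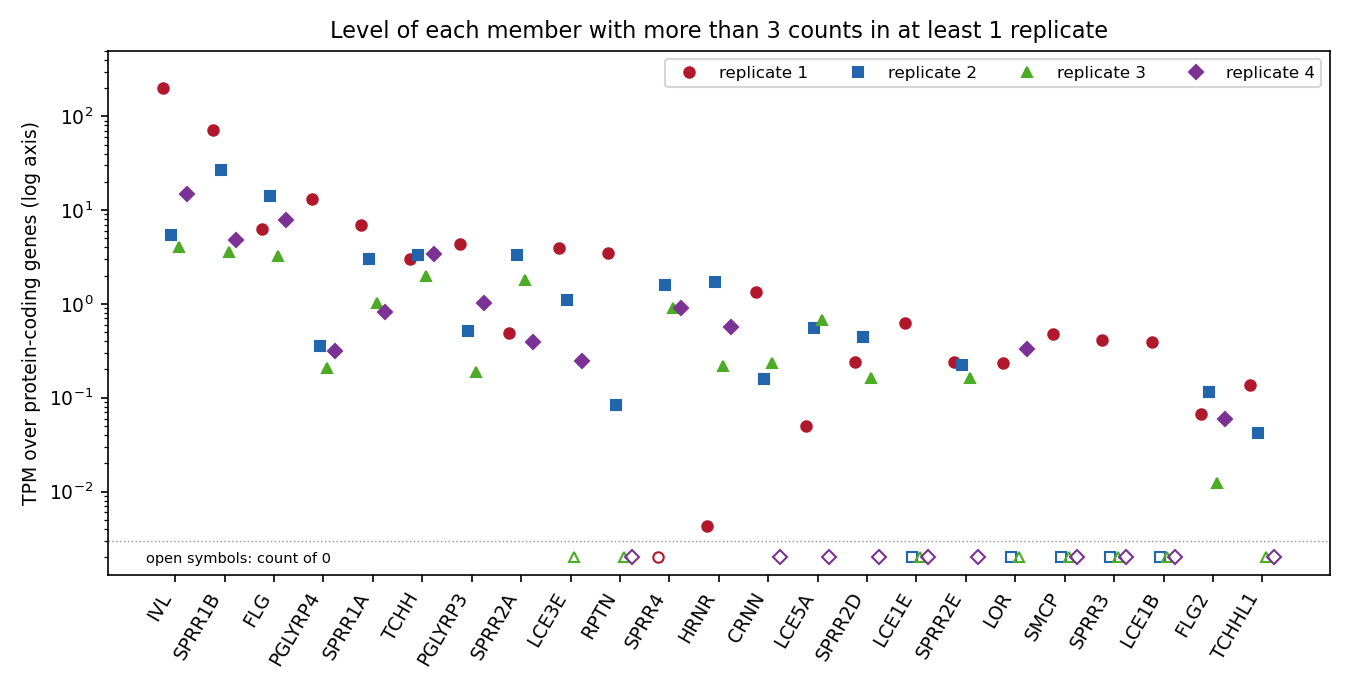
TPM over protein-coding genes (log axis) of the 23 members with more than 3 counts in at least 1 replicate, ordered by mean TPM, with 1 symbol per HaCaT replicate and open symbols at the lower edge for a count of 0. IVL runs from 4.06 to 202 TPM with replicate 1 on top, TCHH lies between 2.0 and 3.43, and HRNR has its lowest value, 0.00427, in replicate 1.

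The promoters of the detected members share letters that were not used to choose the genes. AP-1 proteins, dimers of the JUN and FOS families, bind forms of TGANTCA, a sequence that reads alike on both strands apart from its middle base. Any middle base was accepted here, so the letters are looser than an AP-1 site. In RefSeq promoters (GRCh38.p14, 250 bases before to 50 after the start), these letters were found, on either strand, in 5 of 6 promoters of detected members and in 7.71% of all 35116 promoters. The 5 genes that hold them follow as 30 bases of the gene's own strand with the 7 matching bases in capitals.
IVL (chr1:152908412-152908441, plus strand, first capital at -123 from the start): gatgcctgtggTGAGTCAggaaggggttag
SPRR1B (chr1:153031051-153031080, plus strand, at -141): atcacaaaagtTGAGTCAacaggtgggtga
SPRR1B (chr1:153031081-153031110, plus strand, at -111): gggaagaggggTGAATCAcatctgacaggt
SPRR1A (chr1:152983962-152983991, plus strand, at -108): ggatggtagtgTGAGTCAtgtgtgacaggt
TCHH (chr1:152115525-152115554, minus strand, at -99): ttggttaggaaTGAATCAggccatcccaca
FLG (chr1:152325300-152325329, minus strand, at -79): ttggttaggaaTGAATCAgaccatcccaca

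SPRR1B held 2 such stretches, and the windows of TCHH and FLG are nearly the same text. IVL, SPRR1A and SPRR1B held the form TGAGTCA, while TCHH and FLG held only TGAATCA. The share of all promoters with TGAGTCA alone was not computed. Promoters were matched for 38 of 41 members (not for LCE1B, SPRR2D and SPRR2E). The letters occurred in 14 of the 38 (36.8%), in 8 of 17 promoters of members with counts that were not detected (47.1%) and in 1 of 15 of members without a count, SPRR2G (6.67%). Of these 15 members, 12 are LCE genes, and no matched LCE promoter holds the letters, whether the gene had counts or not. Gene family and level therefore cannot be told apart in these shares. LOR, which was close to 0 in every replicate, also holds the letters.
LOR (chr1:153259628-153259657, plus strand, at -48): gcctggatcaaTGAGTCAgggagagctcta

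The TATA box letters TATAAA were found in members with and without counts. They stood in 22 of 38 member promoters (57.9%) against 11.5% of all promoters, with 4 of 6 among detected members and 9 of 15 among members without a count (60%). HRNR and LCE2C are examples, the first with counts and the second without.
HRNR (chr1:152224207-152224236, minus strand, at -31): cattattccctcTATAAAaaggccactctg
LCE2C (chr1:152675237-152675266, plus strand, at -30): aagcctgggcccTATAAAagacacatccag

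The letters CACNCCC, which KLF-type factors bind, were found in 7 of 38 member promoters (18.4%) and in 30% of all promoters. A match describes the sequence and is not a measured binding site, members of a family share sequence by descent, and absence from these 300 bases says nothing of a factor acting from elsewhere.

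Involucrin, the early scaffold of the envelope, had the highest mean level of all members and the largest spread, both of which rest on replicate 1. IVL (chromosome 1, 152882226 to 152884362 in hg19, plus strand) had 10475, 78, 78 and 238 counts and 202, 5.49, 4.06 and 14.9 TPM in replicates 1 to 4. Replicate 1 lay far above the rest, and the mean of 56.6 ± 96.9 TPM (SD, n = 4) became 8.17 ± 5.92 (SD, n = 3) without it, below the means of SPRR1B and FLG over the same 3 libraries (11.7 and 8.46 TPM). Among the 16494 protein-coding genes with any count, IVL stood at percentile 95.7 in replicate 1 and at 39.2, 40.8 and 52.7 in replicates 2 to 4. Replicate 1 exceeded the pooled other replicates 25.3 times (95% Clopper-Pearson interval 22.8 to 28.0). A range in brackets after a ratio is this interval throughout. It covers only the counting error of independent reads and leaves out variation between samples and libraries. The reads carry no molecular identifiers, so copies of 1 molecule are counted apart, and such copies make the interval too narrow. Replicates 2 to 4 were not alike either, because replicate 4 exceeded replicate 2 by 2.72 times (2.10 to 3.56), while replicates 2 and 3 differed by 1.35 times with an interval that includes 1 (0.975 to 1.87).

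Loricrin, the bulk protein of the mature envelope, was almost absent. LOR had 7, 0, 0 and 3 counts, or 0.234, 0, 0 and 0.328 TPM, so only replicate 1 passed 3 counts. Within each replicate IVL exceeded LOR by 7.36, 2.70, 2.34 and 3.59 on the log2(TPM + 1) scale. The mean difference was 4.0 ± 2.30 (SD, n = 4), positive in 4 of 4 replicates (exact permutation test by sign flips, two-sided, p = 0.125, and 0.188 after Benjamini-Hochberg adjustment over the 3 contrasts of genes or families). With 4 replicates this test gives no p below 0.125, so no such difference could pass 0.05 here. The pseudocount of 1 understates differences of genes as low as LOR.

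The SPRR genes, cross-bridging proteins that lie next to IVL, were the family with the highest summed level in replicates 1 to 3. SPRR1B (153003679 to 153005376, plus strand) had 1077, 110, 20 and 22 counts, or 71.6, 26.7, 3.59 and 4.77 TPM. Replicates 1 and 2 were high and replicates 3 and 4 low, with replicate 2 exceeding replicate 3 by 7.44 times (4.59 to 12.6) and replicates 3 and 4 differing by 1.33 times (0.691 to 2.56). The mean was 26.7 ± 31.8 TPM (SD, n = 4) and 11.7 ± 13 (SD, n = 3) without replicate 1, which exceeded the pooled others 6.73 times (5.68 to 8.03). SPRR1A, its close relative, had 111, 13, 6 and 4 counts, or 6.97, 2.99, 1.02 and 0.820 TPM. Replicates 1 and 2 were again the highest, and replicate 1 exceeded the pooled others 4.59 times (2.91 to 7.53). Per length, SPRR1B exceeded SPRR1A 10.3 (8.44 to 12.6), 8.95 (5.02 to 17.3), 3.53 (1.37 to 10.7) and 5.82 (1.98 to 23.2) times in replicates 1 to 4, with no interval that includes 1. Of the 50-base stretches of the 1 SPRR1A transcript examined, 11.3% also occur in another gene, mostly SPRR1B, and of its 100-base stretches 0%. That transcript has 270 bases and the counted gene 655, so part of the counted sequence was not examined. The read length is not given, so how far the reads of both could be told apart is not known.

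The other SPRR genes did not all share the high level of SPRR1A and SPRR1B in replicate 1. SPRR2A had 8, 15, 11 and 2 counts (0.486, 3.33, 1.81 and 0.397 TPM), and replicate 1 was at 0.271 times the pooled others (0.107 to 0.611). SPRR4 had 0, 8, 6 and 5 counts, or 0, 1.61, 0.895 and 0.900 TPM. It was missing from the deepest library alone, where its level was at least 6.67-fold lower than in the pooled others, with the 3-count limit of replicate 1 in place of 0 (the 95% interval of the ratio ends at 0.204). SPRR3, a marker of internal squamous epithelia, went the other way, with 10 counts in replicate 1 (0.417 TPM) and none in the others, which is at least 3.17-fold higher against 3 counts over the pooled others (lower end of the interval 2.13). The remaining SPRR2 genes had 0 to 4 counts in any replicate, and SPRR2B and SPRR2G had none. The counts of SPRR2 genes are uncertain, since 32.7% of the 50-base stretches of SPRR2A, 26.8% of SPRR2D and 23.0% of SPRR2E occur in another gene. With 100 bases the shares are 20.3, 4.56 and 12.1%.

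Among the fused-type S100 genes, FLG and TCHH were the steadiest of the detected members. FLG (152274651 to 152297679, minus strand), whose product is cut into the monomers that bundle keratin and later yield natural moisturizing factor, had 1969, 1216, 372 and 738 counts. These give 6.36, 14.3, 3.25 and 7.77 TPM, with a mean of 7.93 ± 4.68 (SD, n = 4). Replicate 2 was highest and replicate 3 lowest, 4.42 times apart (3.93 to 4.98), and the interval of every pair of replicates lay off 1. Replicate 1 was at 0.804 times the pooled others (0.757 to 0.854), inside the range of the rest. TCHH, a protein of hair follicle sheath and tongue papillae, had 508, 156, 126 and 179 counts, or 2.99, 3.35, 2.0 and 3.43 TPM (2.95 ± 0.657, SD, n = 4). Its intervals included 1 for the 3 pairs among replicates 1, 2 and 4, and each of these exceeded replicate 3, by 1.49 to 1.71 times. Per length FLG exceeded TCHH 2.13, 4.28, 1.62 and 2.26 times in replicates 1 to 4.

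HRNR and RPTN, relatives of FLG with the same build, moved in opposite directions between replicate 1 and the rest. Hornerin (HRNR) had 1, 109, 19 and 41 counts, or 0.00427, 1.70, 0.219 and 0.571 TPM. Its single read in the deepest library puts replicate 1 at 0.00562 times the pooled others (0.000142 to 0.0318), and HRNR also differed among replicates 2 to 4, where replicate 2 exceeded replicate 3 by 7.76 times (4.74 to 13.4). Per length FLG exceeded HRNR 8.43, 14.8 and 13.6 times in replicates 2 to 4, against 1488 times (267 to 58796) in replicate 1. Repetin (RPTN) had 304, 2, 0 and 0 counts, or 3.51, 0.0843, 0 and 0 TPM, a ratio of 144 (39.6 to 1198) between replicate 1 and the pooled others. HRNR was thus below the limit of detection in replicate 1 only, and RPTN in replicates 2 to 4 only. GC content was 54.6% for HRNR and 53.9% for FLG, and 46.3% for RPTN. Within their own transcripts, 48.4% of the 50-base stretches of HRNR and 29.9% of those of FLG are repeated, and how reads with several equally good placements were counted is not given in the sources used here.

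The other fused-type genes had few counts. Cornulin (CRNN), a protein of squamous epithelia, had 62, 2, 4 and 0 counts (1.33, 0.157, 0.233 and 0 TPM), with replicate 1 at 9.82 times the pooled others (4.26 to 27.8). FLG2, a filaggrin relative, had 15, 7, 1 and 4 counts (0.0677, 0.115, 0.0122 and 0.0589 TPM), and its ratio of 1.19 (0.519 to 2.78) showed no difference at this depth. TCHHL1 had 12, 1, 0 and 0 counts. FLG and FLG2 overlap the antisense gene FLG-AS1, which had 173, 71, 20 and 41 counts. The strand setting of the counting is not given, so reads of the sequence that these genes share with the antisense gene cannot be told apart. FLG-AS1 starts at 152285935, so part of FLG lies outside the overlap.

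Of the 18 LCE genes, none was detected and 12 had no count in any replicate. The family occupies 333140 bases (152483320 to 152816459) and together took 83, 8, 5 and 1 counts, or 5.05, 1.90, 0.679 and 0.245 summed TPM. LCE3E, of the group of LCE genes that skin induces after injury, gave most of these, with 52, 4, 0 and 1 counts (3.91, 1.10, 0 and 0.245 TPM) and a ratio of replicate 1 to the pooled others of 9.88 (3.97 to 31.7). LCE1E and LCE1B had counts in replicate 1 only, 18 (0.628 TPM) and 11 (0.397 TPM), which is at least 5.70-fold and 3.48-fold higher than 3 counts over the pooled others (lower ends of the intervals 4.18 and 2.38). LCE5A had 1, 3, 5 and 0 counts, and LCE3D and LCE1C had 1 count each in all. All 4 LCE2 genes, LCE4A and LCE6A were at 0. Among them LCE2C and LCE2B share 28.3% and 23.6% of their 50-base stretches with another gene, and 5.44% and 5.46% of their 100-base stretches. Whether ambiguous reads were discarded is not given in the sources used here.

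**Figure D2:**
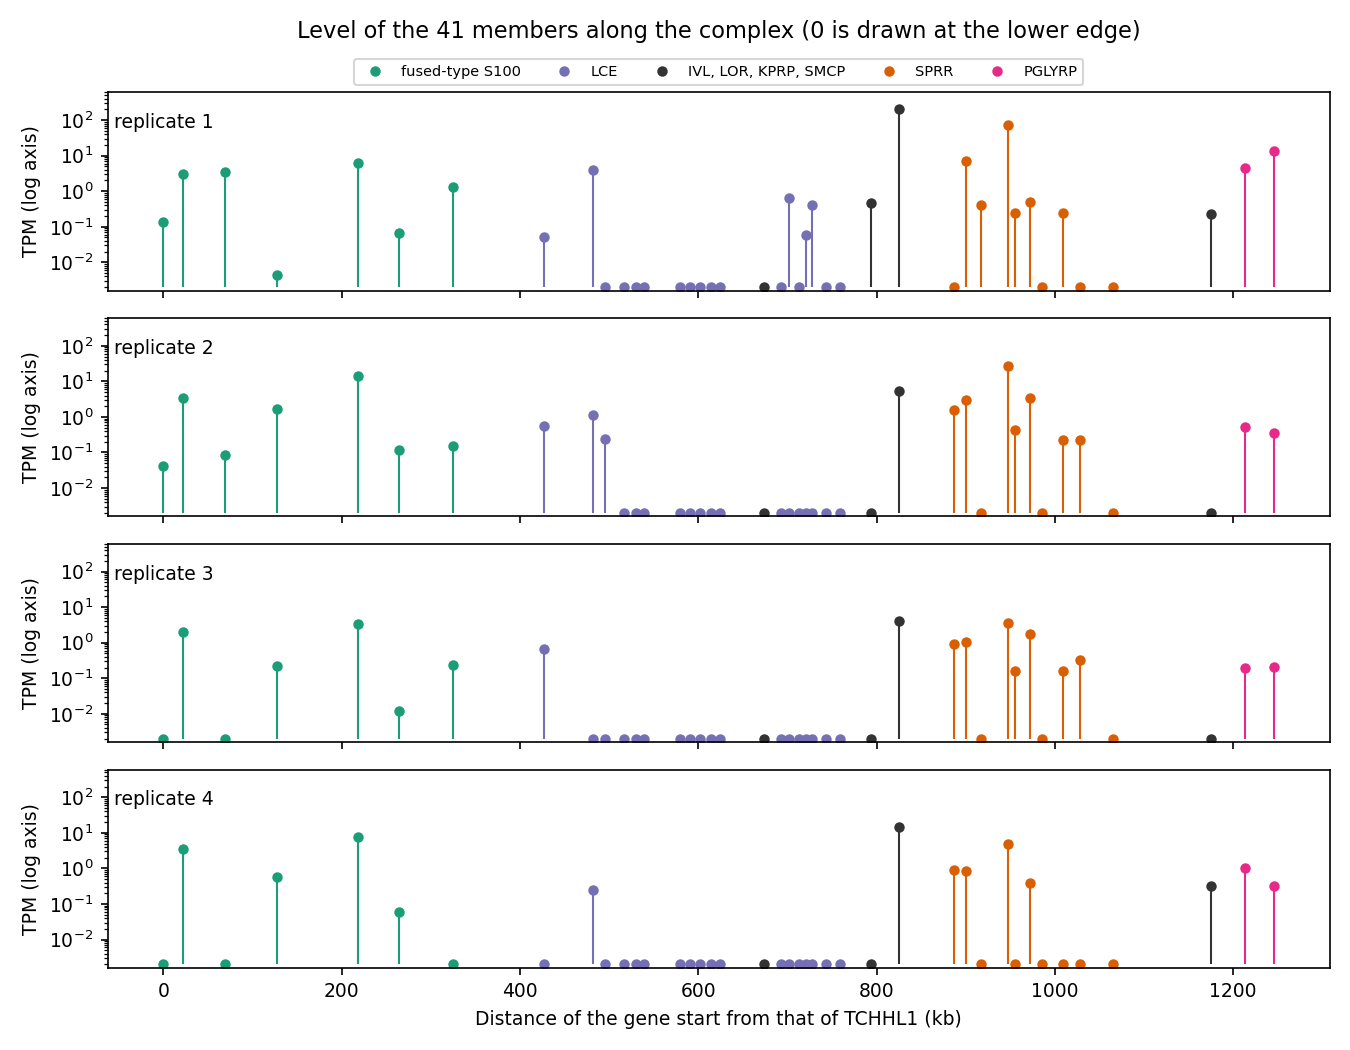
TPM over protein-coding genes (log axis) of all 41 members against the distance of each gene start from that of TCHHL1 (kb), 1 panel per HaCaT replicate, coloured by family, with 0 drawn at the lower edge. The LCE block in the middle is at 0 for 12 of 18 genes in every panel, while IVL and SPRR1B to its right and FLG and TCHH to its left have values in all 4.

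The peptidoglycan recognition genes at the far end followed IVL in being high in replicate 1. PGLYRP4 (153302596 to 153321317, minus strand) had 676, 5, 4 and 5 counts, or 13.1, 0.353, 0.209 and 0.315 TPM. Replicate 1 exceeded the pooled others 45.9 times (27.2 to 84.4). With 4 or 5 counts in each of replicates 2 to 4, differences of several times among these could not be detected (0.364 to 8.52 for the widest interval). PGLYRP3 had 125, 4, 2 and 9 counts (4.39, 0.513, 0.190 and 1.03 TPM) and a ratio of 7.92 (4.62 to 14.6). PGLYRP4 is also the detected member whose promoter lacks TGANTCA. Of the 2 single genes left, SMCP, a sperm mitochondrial protein, had 9 counts in replicate 1 and none elsewhere (at least 2.85-fold higher, lower end of the interval 1.88), and KPRP, a keratinocyte proline-rich protein, had none.

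Summed over families, the members changed in composition as well as in amount between replicates. All members summed to 319, 63.6, 18.8 and 35.6 TPM, 109 ± 141 (SD, n = 4) in the mean and 39.3 ± 22.6 (SD, n = 3) without replicate 1. IVL alone gave 63.2, 8.63, 21.6 and 42.0% of this sum in replicates 1 to 4, and the sum without it was 118, 58.1, 14.8 and 20.6 TPM. SPRR genes gave 25, 55.9, 42.4 and 19.3%, so they led in replicates 2 and 3. The fused-type genes held 31.1, 30.4 and 33.3% in replicates 2 to 4 and 4.51% in replicate 1, at summed levels of 14.4, 19.8, 5.72 and 11.8 TPM in replicates 1 to 4 that did not set replicate 1 apart. The S100 genes of the same window summed to 9410, 6656, 6014 and 5798 TPM, far above all 41 members in every replicate.

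**Figure D3:**
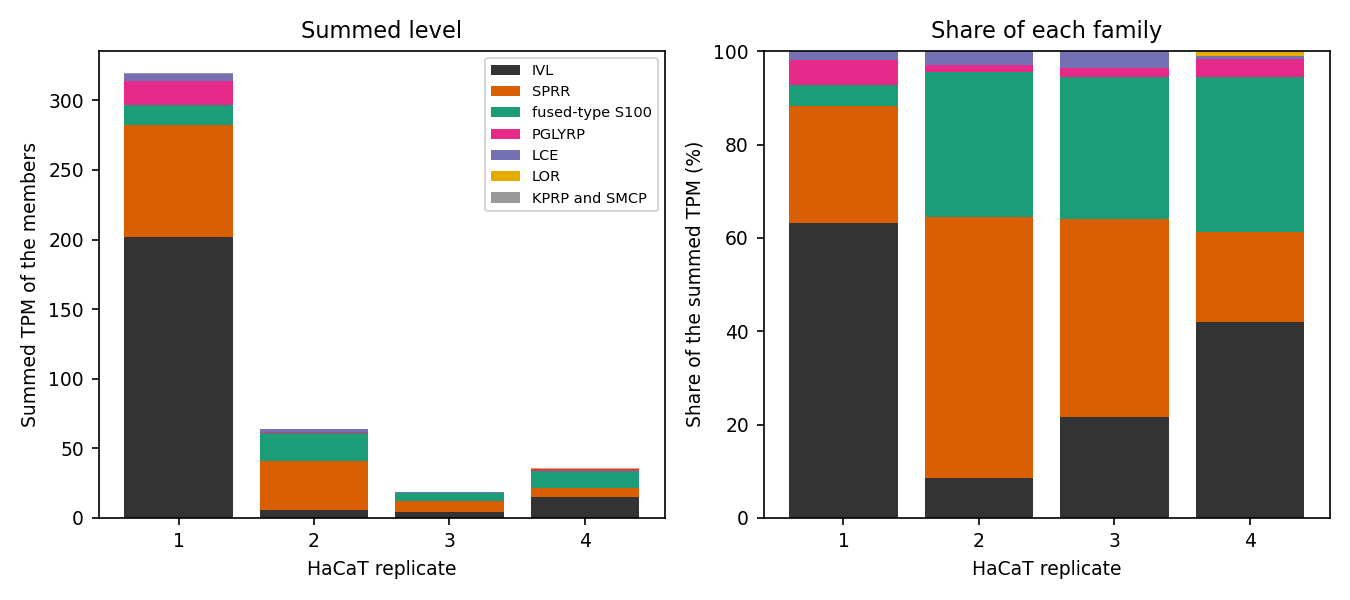
Summed TPM of the members by family (left, bars from 0) and the share of each family in that sum (right, %), for each of the 4 HaCaT replicates. The total is 319 TPM in replicate 1 and 18.8 to 63.6 in the others, and the share of IVL runs from 8.63% in replicate 2 to 63.2% in replicate 1.

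The SPRR family lay above the LCE family in all 4 replicates and was not separated from the fused-type genes. On the log2(summed TPM + 1) scale SPRR exceeded LCE by 3.74, 3.66, 2.42 and 2.66, with a mean of 3.12 ± 0.68 (SD, n = 4; the same two-sided exact permutation test, p = 0.125, adjusted 0.188). SPRR minus fused-type genes gave 2.39, 0.81, 0.42 and -0.70, a mean of 0.73 ± 1.28 (SD, n = 4), smaller than its spread (same exact test, p = 0.375, adjusted 0.375). That difference depends on length, since SPRR genes are short and FLG, HRNR and TCHH long. With CPM, which has no length correction, it was -2.92 ± 1.27 (SD, n = 4).

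No fixed order of the 6 detected members held across replicates. By mean TPM the order was IVL, SPRR1B, FLG, PGLYRP4, SPRR1A and TCHH, but none of the 5 pairs of neighbours had the same sign in all 4 replicates. IVL minus SPRR1B was 1.48, -2.10, 0.14 and 1.47 on the log2(TPM + 1) scale (0.25 ± 1.68, SD, n = 4), and the two-sided exact sign-flip p-values of the 5 pairs ran from 0.25 to 0.875. Per length, IVL stood at 2.82 (2.65 to 3.0), 0.205 (0.152 to 0.277), 1.13 (0.684 to 1.95) and 3.13 (2.02 to 5.10) times SPRR1B, so both directions occurred beyond the counting error of independent reads. Without replicate 1 the order was SPRR1B, FLG, IVL, TCHH, SPRR1A and PGLYRP4, and 3 of 5 pairs of neighbours kept their sign in the 3 libraries.

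Replicate 1 was 4 or more times the pooled others for 4 of the 6 detected members, IVL, SPRR1A, SPRR1B and PGLYRP4. Among all 12633 detected protein-coding genes 3.89% (492) met this limit, which was set after the values were seen. None of the 6 was at 0.25 times or less, against 10.1% (1270) of all. The same 4 had their highest level in replicate 1, where 39.4% of all detected genes had theirs, and none of the 6 had its lowest level there, against 37.4%. The SD of log2(TPM + 1) over replicates was 0.260 for TCHH, 0.764 for FLG, 0.989 for SPRR1A, 1.72 for PGLYRP4, 1.90 for SPRR1B and 2.43 for IVL. Its median over the 6 was 1.36 against 0.490 over all detected genes, and 102 of these genes varied more than IVL. Without a filter on low counts the direction turned, with 0.209 for the members and 0.347 for all protein-coding genes. That median includes genes without any count, whose SD is 0 (36.6% of members, against 14.2% of protein-coding genes), so it does not show steadier levels. With the filter but without replicate 1 the medians were 0.743 and 0.319. A member passes the detection limit in every replicate only if its low replicates do, so HRNR and SPRR4, with 1 and 0 counts in replicate 1, and RPTN, with 0 to 2 counts elsewhere, are not in this count. Over the 23 members with more than 3 counts in at least 1 replicate, and with counts below 3 raised to 3, 9 were 4 or more times higher in replicate 1, against 5.96% of 15022 protein-coding genes. The 9 were the 4 above with CRNN, LCE1E, LCE3E, PGLYRP3 and RPTN. LCE1E (18, 0, 0 and 0 counts) and RPTN (304, 2, 0 and 0) pass the filter only through replicate 1, the deepest library. Their direction is therefore fixed in part by the filter. HRNR and SPRR4 were at 0.25 times or less, against 12.7%. In replicates 2 to 4 alone 8 members were detected, the 6 with HRNR and SPRR4, against 67.7% of protein-coding genes.

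**Figure D4:**
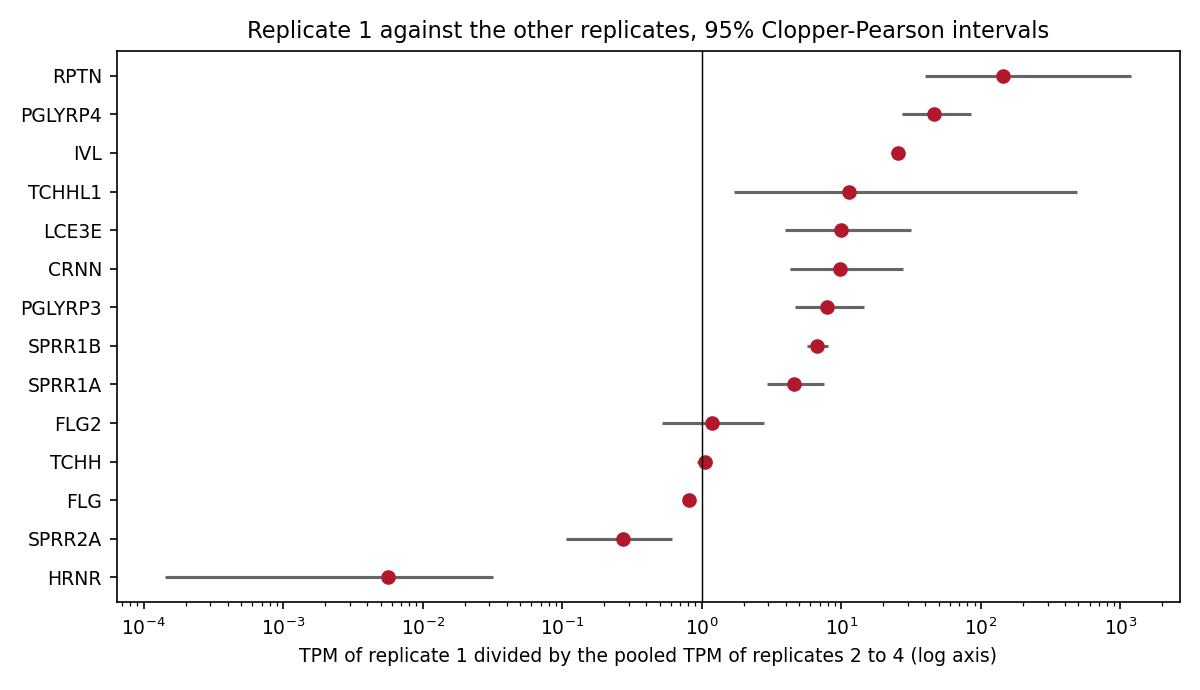
TPM of replicate 1 divided by the pooled TPM of replicates 2 to 4 (log axis) for the 14 members with more than 10 counts in all and a finite ratio above 0; lines are 95% Clopper-Pearson intervals for counting error. The 9 members from SPRR1A upward lie right of 1, FLG2 and TCHH have intervals that include 1, and FLG, SPRR2A and HRNR lie left of it.

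The scaling of replicate 1 decides part of this. With TPM over all genes of the file, in which replicate 1 carries many noncoding counts, the median detected gene shifted by -1.20 (log2) in replicate 1. SPRR1A and SPRR1B were then highest in replicate 2, while IVL and PGLYRP4 stayed highest in replicate 1. Under CPM, TMM factors and median-of-ratios factors all 4 were highest in replicate 1. The labels name no difference between the replicates. Depth and the share of protein-coding counts, given above, set replicate 1 apart in the same way, and their part in these values was not tested.

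Other genes of epidermal differentiation, outside chromosome 1q21, gave a mixed picture. Of 26 such genes 14 were detected, against 65.7% of all protein-coding genes. Of the 14, 5 were 4 or more times higher in replicate 1 (35.7%, against 3.89% of all detected genes). These were KRT1, KRT10, SPINK5, ABCA12 and CSTA, which were named for passing this limit. The filter leaves out genes that were high in replicate 1 alone. Over the 25 with more than 3 counts in at least 1 replicate, counts below 3 raised to 3, 12 passed (48%, against 5.96%). Among them were DSG1 with 2107, 0, 0 and 0 counts, CALML5 with 649, 6, 1 and 12 and CASP14 with 100, 0, 0 and 2. DSG1, CASP14, DSC1 and TGM5 pass this looser filter only through replicate 1, so their direction is fixed in part by the filter. CDSN and ALOXE3 were at 0.25 times or less. The median ratio of replicate 1 to the pooled others over the 14 was 1.35, against 0.996 over all detected genes. Highest by mean were KLK5, a protease of desquamation (255, 442, 257 and 294 TPM), the plakin PPL (170, 207, 142 and 215) and the protease inhibitor CSTA (284, 42.1, 75.2 and 52.2), of which CSTA alone had replicate 1 on top. The lowest were TGM3, KRT2 and SBSN, with means of 0.0202, 0.0384 and 0.0604 TPM. KRT1, the suprabasal keratin, had 124, 0.430, 0.545 and 0.219 TPM, a ratio of 306, and its partner KRT10 had 229, 31.3, 52.4 and 47.4. TGM1, which cross-links the envelope, had 96.3, 60.6, 14.8 and 27.8 TPM.

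Of 25 transcription factors known to act on the complex 23 were detected, against 65.7% of all protein-coding genes. None of the 23 was 4 or more times higher in replicate 1, which is close to the 3.89% of all detected genes. At 0.25 times or less were 5 (21.7%), against 10.1% of all detected genes. MAF was left out by the filter because replicate 2 had 3 counts. With 921, 3, 4 and 14 counts it was 41.7 times higher in replicate 1. It was the 1 regulator of 25 past the limit when more than 3 counts in at least 1 replicate were enough. That share of 4% is near the 5.96% of all protein-coding genes. JUNB was the highest with 282, 349, 333 and 562 TPM, followed by FOSL1 with 3.26, 572, 347 and 170 and EHF with 258, 176, 64.6 and 187. JUNB and FOSL1 encode AP-1 subunits. The AP-1 subunits of the list did not move together. FOSL1 was at 0.00920 times the pooled others in replicate 1, and JUN had 8.57, 61.7, 60.7 and 46.8 TPM. FOSL2 had 110, 70.6, 39.1 and 80.4 TPM, and FOS, JUND and JUNB were at 1.22, 0.596 and 0.684 times the pooled others. Whether any of them acts on the members in these cells was not tested. KLF4 had 13.9, 55.6, 50.1 and 17.3 TPM. The lowest regulators were ZNF750, HOPX and SATB1 with means of 0.380, 0.504 and 0.809 TPM. JUN, FOSL2, FOS, JUND, KLF4, KRT1, KRT10 and TGM1 were not among the highest or lowest of their lists and were picked with their values in view.

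**Figure D5:**
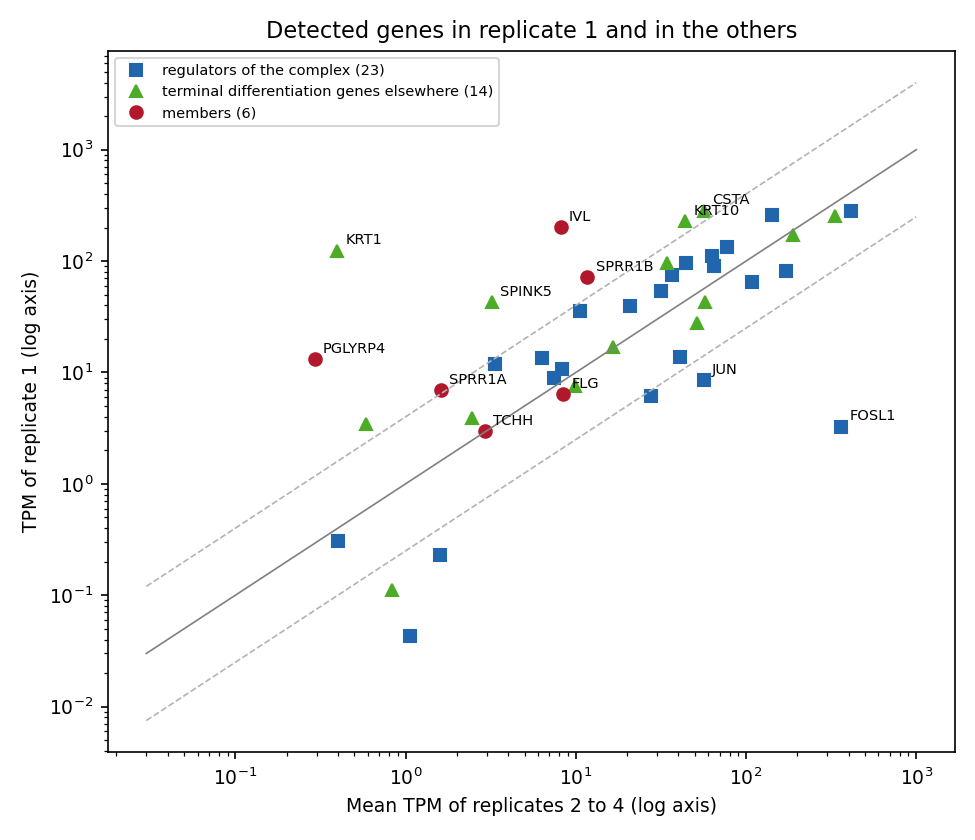
TPM of replicate 1 against the mean TPM of replicates 2 to 4 (both log axes) for the 6 detected members, 14 terminal differentiation genes outside the complex and 23 regulators; the solid line marks equal levels and the dashed lines a ratio of 4 either way. IVL, PGLYRP4, SPRR1B and SPRR1A lie above the upper dashed line with KRT1, SPINK5, KRT10, CSTA and ABCA12. FLG and TCHH lie near the solid line, and FOSL1 lies lowest against its other replicates.

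The S100 genes and the remaining genes of the window set the scale for their neighbours. The highest S100 genes by mean were S100A11 (753, 2320, 2012 and 2037 TPM), S100A6 (3755, 853, 954 and 941) and S100A2 (1697, 1272, 1252 and 727). S100A12 and S100A7L2 were at 0, and S100A7A had a mean of 0.0269 TPM. Of the 14 detected S100 genes, 2 were 4 or more times higher in replicate 1 (14.3%, against 3.89% of all detected genes). Of the 9 other genes, ILF2, SNAPIN and CHTOP were the 3 detected, with means of 311, 104 and 88.3 TPM, and LELP1, NPR1 and LOC100131107 were lowest, at 0 to 0.0249.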

How the data were processed

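RNA-seq of 4 untreated HaCaT samples, a single group, was analysed. The authors deposited read counts per gene with gene lengths and hg19 positions, and beside them RPKM for replicates 1 and 2 and TPM for replicates 3 and 4. Both deposited units were recomputed from the counts to within a relative difference of 6.7e-07. The submitters' processing notes name HISAT2, HISAT, TopHat2, Bowtie2 and hg19 without roles. The counting program, annotation, read length and strand setting are not given in the sources used here. The label gives 12% serum.

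TPM over protein-coding genes was computed for all replicates. Detection meant more than 3 counts in every replicate, and differences were taken on log2(TPM + 1) within a replicate. Two-sided exact sign-flip permutation tests, adjusted over 3 contrasts, and 95% Clopper-Pearson intervals of count ratios were used. The scripts were tested on simulated data. TMM factors came from edgeR 4.0.16 (R 4.3.3), and the rest from SciPy 1.17.1, NumPy 2.4.6, pandas 2.3.3 and matplotlib 3.10.9 under Python 3.11.15. Repeated stretches were counted as 50-base and 100-base words of each member's longest protein-coding transcript in GENCODE release 29, set against all transcripts of that release. Promoter sequences are from RefSeq (GRCh38.p14).

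The members, gene lists and motifs were chosen with earlier results of these data known. Genes named were the detected members, the 12 highest members, the highest of each family, and the 3 highest and 3 lowest genes of the epidermal, regulator, keratinocyte marker and neighbour lists. Any further gene was named with its values in view. Alternatives were other scalings, detection limits and pseudocounts and leaving out each replicate.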

Additional observations from a re-analysis of the deposited data

Results flagged for a closer look

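In 4 of 12 sets of 4 replicate values, replicate 1 lay apart from the rest by Dixon's gap, the distance to the nearest other value divided by the whole range. Chance flags about 1 in 20 such sets of normally distributed values, or 0.600 of 12, and the sets are not independent. The gap was taken on TPM without logs, a scale on which a high value lies further from the rest. The share of all genes past the same limit was not computed, so these sets are not shown to differ from other genes. The gap was 0.945 for the TPM of IVL, 0.989 for that of PGLYRP4, 0.945 for the summed TPM of PGLYRP3 and PGLYRP4 and 0.851 for the sum over all members, each with replicate 1 on top.

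Outside the protein-coding genes, FLG-AS1, antisense to FLG and FLG2, had at least 20 counts in every replicate. It was 1 of 11 noncoding genes between the first and last member with more than 3 counts in all 4. The strand setting is not given, so reads from the stretch where these genes overlap cannot be told apart. By the counts as deposited, FLG per length exceeded it 3.70 (3.16 to 4.34), 5.56 (4.38 to 7.17), 6.04 (3.85 to 10) and 5.84 (4.27 to 8.21) times in replicates 1 to 4.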

How the results depend on the processing

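No paired analysis was possible because all 4 samples belong to 1 group, so that replicate numbers pair no samples across groups (the contrasts set genes against each other within a library). Of 93 values recomputed under other settings, 84 kept their direction and, for means, moved by less than 1 SD over replicates or, for counts, by no more than 1.5 times. The SD of IVL and PGLYRP4 is so large that this holds even for their means without replicate 1, 8.17 in place of 56.6 TPM and 0.292 in place of 3.49. The number of detected members was 6, against 23 with more than 3 counts in at least 1 replicate, 9 with a mean TPM above 1 and 4 with more than 10 counts in every replicate; leaving out 1 replicate gave 6 to 8. SPRR minus fused-type genes was 0.73 and turned to -2.92 with CPM, which lacks the length correction. Pairs of neighbours with 1 sign in every library numbered 0 of 5, but 1 with TPM over all genes, 2 with CPM and 0 to 3 without 1 replicate. The median SD of the members was 1.36, but 0.209 without a filter on low counts (0.347 over all genes) and 0.743 to 1.60 without 1 replicate, lowest without replicate 1. The mean of TCHH was 2.95 TPM and 2.21 with TPM over all genes. The sum over members was 109 TPM, 51.2 with TPM over all genes and 39.3 to 139 without 1 replicate. SPRR minus LCE ran from 2.21 to 3.96 and IVL minus LOR from 2.87 to 6.39, always positive. The causes of the other shifts were not tested. Depth limits the LCE and SPRR2 genes, LOR and FLG2, whose counts were mostly below 10.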
